A study of Mus musculus with 10 samples.

Results

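The genes described here encode the enzymes, carriers and regulators of branched-chain amino acid and propionate catabolism. The 29 members were chosen by gene name from a list, and all 29 were found among the 40503 genes of the deposited table. They were compared by RNA-seq of gonadal fat, the white adipose tissue around the gonads, from 5 mice labelled Med19 KO and 5 labelled WT. All were C57BL/6 females, and 12 weeks is the age the labels give. Med19 encodes a Mediator subunit. Mediator connects DNA-bound transcription factors with RNA polymerase II. The knockout is described as adipose-specific and inducible (MED19-iAKO), with tamoxifen at 100 mg/kg for 5 days and tissue taken 14 days after it. The labels do not say whether WT mice received tamoxifen, and no source used here names the Cre driver. The numbers in the sample titles name the libraries below, and the labels do not say what these numbers stand for. The p-values measure the spread between these libraries.

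Leucine, isoleucine and valine are essential amino acids. Aminotransferases convert them to branched-chain keto acids, and a mitochondrial dehydrogenase complex then commits the keto acids to breakdown. Leucine carbon ends as acetyl-CoA and acetoacetate, valine carbon as propionyl-CoA, and isoleucine carbon as both acetyl-CoA and propionyl-CoA, which is carboxylated and rearranged to succinyl-CoA. Adipocytes take up and oxidise branched-chain amino acids, induce the pathway as they differentiate, and use part of the carbon for fatty acid synthesis.

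Levels are RPKM, read numbers divided by the length of the gene and by the library's total. Whole reads could be recovered from these values, and the 10 libraries held 14440554 to 20178084 of them. Med19 RNA was at 6.79 ± 0.85 RPKM in the libraries labelled KO and 6.70 ± 0.89 RPKM in WT (SD, n = 5 each; two-sided exact permutation p = 0.881), so it did not check the labels, and every direction below rests on them. All 15 adipocyte markers were detected, and their summed level was 7281 to 8304 RPKM in KO-labelled libraries and 18220 to 26320 RPKM in WT, with 13 called lower and none higher. Lep (log2 change -1.01) and Cd36 (0.19) were not called. Such sums follow the most abundant genes, here Cfd at a mean of 1976 against 8815 RPKM. Markers of monocytes and neutrophils summed to 505 to 902 RPKM against 228 to 437 RPKM, with 4 of 12 called higher. The most abundant of them were S100a8 (means of 323 against 127 RPKM) and S100a9 (257 against 110 RPKM). The 14 macrophage markers summed to 4832 to 6051 against 3873 to 5198 RPKM, with Lyz2 alone at means of 3066 against 2762 RPKM. In bulk tissue, fewer cells of a type and less RNA per cell cannot be told apart. The part of cell composition in the results below was not tested. Of 13 tested fibroblast markers Lum was called higher (log2 change 0.47), with Dlk1 listed at 0 in every library. Kdr was called lower of 12 endothelial markers (-0.55), and Mcam (-1.01) and Cspg4 (-0.79) of 10 smooth muscle and pericyte markers. Retnlg (1.497), S100a9 (1.21), Cxcr2 (0.78) and Ccr2 (0.54) were the monocyte and neutrophil markers called higher. With median-ratio scaling Lum, Cxcr2 and Retnlg were not called (limma adjusted p = 0.141, 0.108 and 0.0507), which leaves 2 of those 4. In the 10 runs that left out 1 library Kdr and Cxcr2 were called in 1 each, Lum in 2 and Retnlg in 3. No call was made among tested T, NK and B cell (12), mesothelial (10), mammary, ovary and uterus (4), skeletal muscle (3) or brown adipocyte markers (3), nor among macrophage markers. Skeletal muscle markers summed to 89.1 RPKM in KO 1 and 60.3 RPKM in KO 4 and to 2.67 to 42.9 RPKM in the other libraries. KO 4 stood apart on the second principal component (-40.4, the other 9 libraries from -13.1 to 23.6). The calls lost without it were those of Bckdhb and Mccc1, which were also lost without any other KO-labelled library. The 24 mitochondrial content genes, among them the ATP synthase subunits Atp5a1 (268 against 249 RPKM) and Atp5b (186.0 against 190.6 RPKM), had no call in either direction, with a summed level of 1392 to 1660 RPKM in KO-labelled libraries and 1416 to 1638 RPKM in WT.

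Members of the pathway differed in both directions. Of the 28 members with enough signal to be tested (at least 0.5 RPKM in at least 5 libraries), 5 were called lower and 3 higher in the KO-labelled libraries at a limma adjusted p under 0.05. Of all 17038 genes tested, 1.95% were called lower and 4.0% higher, 5.95% in either direction. The members called lower were Slc25a44, Bcat2, Bckdhb, Hibch and Aldh6a1, and those called higher were Mccc1, Acadsb and Abat. The groups did not overlap for 5 members lower in the KO-labelled libraries, the same 5, and for 3 members higher, Acadsb, Abat and Acat1. The same held for 2.15% and 6.96% of all genes tested. The median log2 change of the 28 members was -0.05, and that of all genes tested was 0.09. Scaling the libraries by median ratios brought these medians to -0.14 and 0.01. With that scaling the members called lower were the same 5, and those called higher were Acadsb and Abat. Of all genes, 414 (2.43%) were then called lower and 102 (0.599%) higher, against 332 and 681 as deposited.

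**Figure D1:**
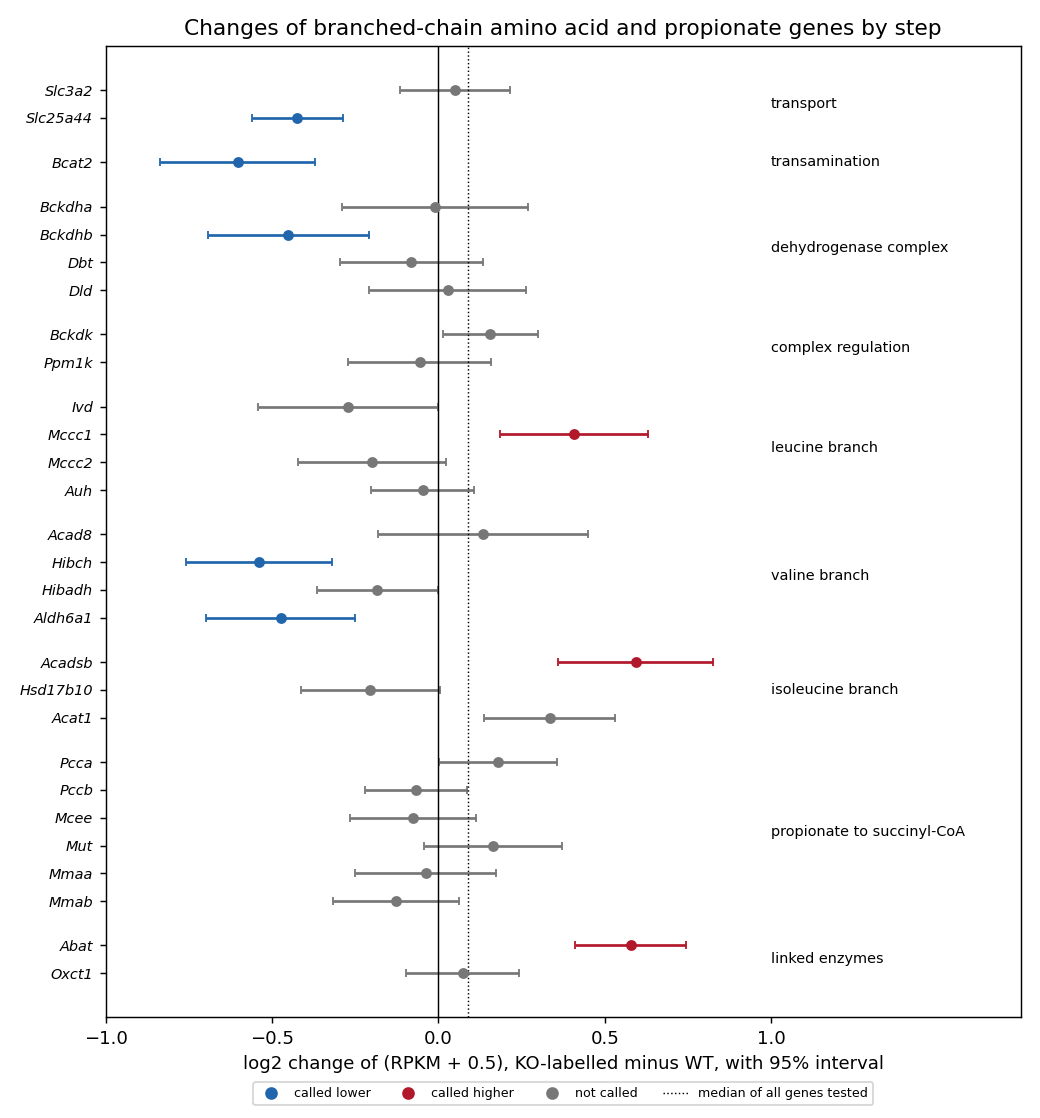
Log2 change of RPKM plus 0.5, KO-labelled minus WT, for the 28 tested members in pathway order, with 95% intervals from limma (n = 5 libraries in each group); the dotted line is the median of all 17038 genes tested, 0.09. Called falls (blue) sit in transport, transamination, the dehydrogenase complex and the valine branch, and called rises (red) in the leucine and isoleucine branches and among the linked enzymes.

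The sequences upstream of 4 called members are shown because these genes moved in opposite directions. They are the members with the largest changes that have an entry among RefSeq promoters (GRCm38.p6), which held 24 of the 29 members. Each run is the 250 bases before the annotated start nearest to the gene's most abundant coding transcript, 5′ to 3′ on the gene's strand. Capitals mark matches to CCAAT, the box bound by nuclear factor Y, and GGGCGG, the GC box bound by Sp1 family factors, on either strand. They lie at chr7:45569903-45570152 (plus strand) for Bcat2, chr7:131410351-131410600 (plus strand) for Acadsb, chr1:52844788-52845037 (plus strand) for Hibch and chr12:84451025-84451274 (minus strand) for Aldh6a1.
Bcat2 (called lower): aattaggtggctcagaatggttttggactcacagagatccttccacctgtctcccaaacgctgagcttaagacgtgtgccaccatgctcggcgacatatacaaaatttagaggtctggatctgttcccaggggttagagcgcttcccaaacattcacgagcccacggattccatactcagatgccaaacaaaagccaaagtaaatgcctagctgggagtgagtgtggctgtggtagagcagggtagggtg
Hibch (called lower): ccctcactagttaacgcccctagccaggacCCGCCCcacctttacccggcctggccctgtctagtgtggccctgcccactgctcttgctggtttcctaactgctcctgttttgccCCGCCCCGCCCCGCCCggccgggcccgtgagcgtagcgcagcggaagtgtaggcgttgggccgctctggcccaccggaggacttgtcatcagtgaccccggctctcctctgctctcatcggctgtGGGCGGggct
Aldh6a1 (called lower): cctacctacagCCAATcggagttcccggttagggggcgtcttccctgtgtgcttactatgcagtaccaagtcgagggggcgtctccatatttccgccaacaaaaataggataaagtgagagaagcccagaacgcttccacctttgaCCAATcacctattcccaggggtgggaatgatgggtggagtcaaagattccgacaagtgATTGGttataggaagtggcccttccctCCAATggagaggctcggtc
Acadsb (called higher): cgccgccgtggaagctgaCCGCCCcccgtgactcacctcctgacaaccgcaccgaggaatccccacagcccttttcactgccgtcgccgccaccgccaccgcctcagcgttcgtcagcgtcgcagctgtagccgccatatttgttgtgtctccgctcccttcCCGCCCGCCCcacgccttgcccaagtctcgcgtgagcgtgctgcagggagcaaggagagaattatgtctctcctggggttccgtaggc

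The window of Aldh6a1 held 4 CCAAT matches and no GGGCGG match. That of Hibch held 5 GGGCGG matches, of which those 135, 130 and 125 bases before the start overlap, and that of Acadsb held 3. The Bcat2 window held no match to any motif searched, but the start used for it lies 220 bases upstream of that of its most abundant coding transcript, against distances of 0, 8 and 21 bases for Acadsb, Hibch and Aldh6a1. The bases next to that transcript's start are therefore not in the window. The nuclear receptor site AGGTCA, its direct repeat with 1 base between the copies (which contains it) and the E-box CACGTG had no match in these 4 windows. The 24 members with an entry were counted at 1 start each, the nearest to the most abundant coding transcript. CCAAT was found in 14, GGGCGG in 13, AGGTCA in 1, CACGTG in 1 and the direct repeat in 0. Other listed starts of Aldh6a1, Bcat1, Bckdhb and Pcca each held AGGTCA, while those of Bcat2 and Mmaa did not. Over 32851 promoter windows of this length, the shares were 33.8% for CCAAT, 32.7% for GGGCGG, 14.0% for AGGTCA, 6.02% for CACGTG and 0.0335% for the direct repeat. These windows include every listed start of a gene, so the shares and the counts of members are not on the same footing. A match is a run of letters and no evidence of binding.

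The carriers differed from each other. Slc25a44, the mitochondrial carrier of branched-chain amino acids, was at 15.2, 15.9, 13.9, 15.8 and 14.8 RPKM in KO-labelled libraries 1, 4, 7, 8 and 17. It was at 19.2, 22.9, 19.9, 20.3 and 20.1 RPKM in WT 2, 9, 19, 86 and 89. Every KO-labelled library lay below every WT library, and the log2 value fell by 0.42 (SE 0.06, limma adjusted p = 0.00419). Its main coding transcript ENSMUST00000057935 was at 8.89 ± 2.05 against 11.9 ± 2.0 RPKM, with groups that overlapped (limma adjusted p = 0.466). Slc3a2, the heavy chain that large neutral amino acid transporters need at the cell surface, was at 41.0 ± 2.3 RPKM in KO-labelled libraries and 39.7 ± 3.9 RPKM in WT. Its log2 change was 0.05 with a 95% interval of -0.12 to 0.21, and it was -0.04 with median-ratio scaling.

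The aminotransferases are a mitochondrial enzyme, encoded by Bcat2, and a cytosolic one, encoded by Bcat1. Bcat2 was at 14.5, 14.2, 12.3, 13.9 and 15.7 RPKM in KO-labelled libraries 1, 4, 7, 8 and 17, and at 18.8, 26.9, 22.9, 22.4 and 18.4 RPKM in WT 2, 9, 19, 86 and 89. The groups did not overlap, and Bcat2 had the largest fall among the members with all 10 libraries (without WT 19 that of Hibch was larger), by 0.60 on the log2 scale (SE 0.11, limma adjusted p = 0.0116). This is a fold change of 0.658, with a 95% interval of 0.560 to 0.774. Its main coding transcript, ENSMUST00000120864, was at 20.97 ± 3.56 against 33.6 ± 5.7 RPKM (limma adjusted p = 0.0946 over all transcripts). Exons of Bcat2 share 622 bases with the antisense gene 0610005C13Rik, for which no level is given here.

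Bcat1 was too low for the fit, at 0.310 ± 0.063 RPKM in KO-labelled libraries and 0.226 ± 0.025 RPKM in WT (n = 5 each). These values rest on 40 to 62 and 28 to 36 reads per library. KO 7, at 0.239 RPKM, was the 1 KO-labelled library within the WT range of 0.188 to 0.252 RPKM. The exact permutation p was 0.0159 (two-sided, a test added because the filter left the gene out), and a limma fit with no filter gave a log2 change of 0.16 with an adjusted p of 0.382. That fit adds 0.5 to each RPKM value, more than any Bcat1 value, so its log2 change understates the difference. The KO-labelled mean was 1.37 times the WT mean. The ratio of Bcat2 to Bcat1 within a library does not depend on the scaling between libraries. It was 34.1 to 55.4 in the KO-labelled libraries and 85.6 to 114.8 in WT.

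**Figure D2:**
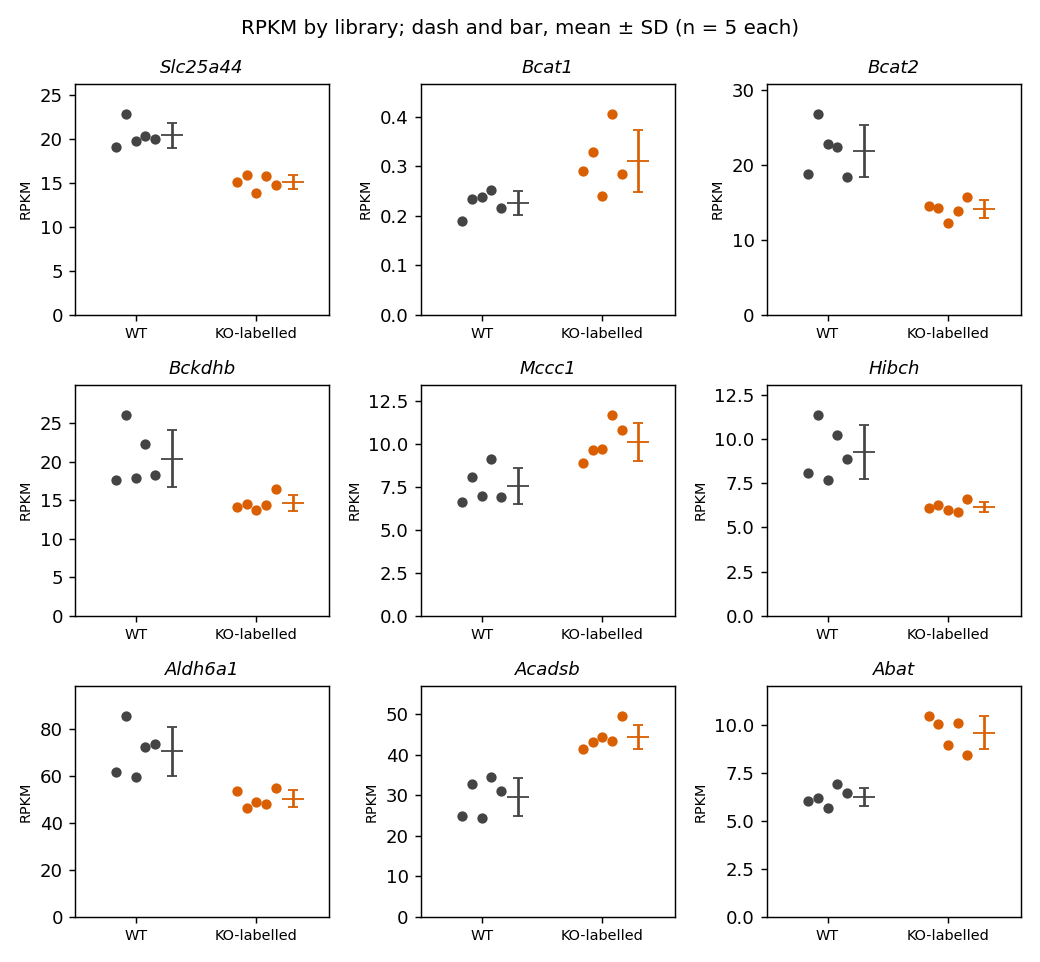
RPKM in each library for the 8 called members and Bcat1, with mean and SD (n = 5 in each group); axes start at 0. Points of the groups do not overlap for Slc25a44, Bcat2, Bckdhb, Hibch, Aldh6a1, Acadsb and Abat, and overlap for Mccc1 and Bcat1.

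The branched-chain keto acid dehydrogenase complex has an E1 decarboxylase made of alpha and beta subunits (Bckdha, Bckdhb), an E2 transacylase (Dbt) and the E3 dehydrogenase (Dld) shared with other complexes. Of these 4 genes only Bckdhb was called. It was at 14.1, 14.5, 13.7, 14.4 and 16.4 RPKM in KO-labelled libraries 1, 4, 7, 8 and 17, and at 17.6, 26.1, 17.8, 22.2 and 18.2 RPKM in WT 2, 9, 19, 86 and 89. The groups did not overlap, with WT 9 and WT 86 standing above the other WT libraries. Its log2 value fell by 0.45 (SE 0.11, limma adjusted p = 0.0405). The call did not hold in 7 of 10 runs that left out 1 library, those that left out any KO-labelled library, WT 86 or WT 89. Over all 10 such runs the log2 change was -0.50 to -0.36. The main coding transcript of Bckdhb, ENSMUST00000190166, was at 15.7 ± 2.3 against 20.6 ± 1.3 RPKM (limma adjusted p = 0.198).

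Bckdha was at 64.4 ± 9.3 RPKM in KO-labelled libraries and 65.0 ± 10.01 RPKM in WT, the highest level per length of any member in the KO-labelled group and next to Aldh6a1 in WT. Its log2 change was -0.01, with a 95% interval of -0.29 to 0.27. In GENCODE M21 its exons share 1171 bases with B3gnt8 on the opposite strand, so reads of the pair may be mixed. Dbt had a log2 change of -0.08 (interval -0.30 to 0.13) and Dld of 0.03 (interval -0.21 to 0.26), and that of Dld was -0.06 with median-ratio scaling. The complex is switched off by the kinase Bckdk and on by the phosphatase Ppm1k. Bckdk was at 25.3 ± 1.7 against 22.7 ± 1.5 RPKM (log2 change 0.16, limma adjusted p = 0.170), and Ppm1k at 3.77 ± 0.43 against 3.94 ± 0.48 RPKM (log2 change -0.06, limma adjusted p = 0.775).

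In the leucine branch the carboxylase subunits had log2 changes of opposite sign. Mccc1, the biotin-carrying subunit of methylcrotonyl-CoA carboxylase, was at 8.85, 9.60, 9.66, 11.7 and 10.8 RPKM in KO-labelled libraries 1, 4, 7, 8 and 17. It was at 6.61, 8.06, 6.93, 9.12 and 6.88 RPKM in WT 2, 9, 19, 86 and 89. WT 86 lay above KO 1, and the log2 value rose by 0.41 (SE 0.10, limma adjusted p = 0.0429). The call of Mccc1 rested on the settings. It held in 1 of 10 runs that left out 1 library, the run without WT 86 (log2 change 0.48), and was not made with median-ratio scaling (0.32, limma adjusted p = 0.108). Its coding transcript ENSMUST00000029259 was at 18.5 ± 1.9 against 14.3 ± 2.1 RPKM (limma adjusted p = 0.318). Mccc1 exons overlap the antisense genes Gm15952 (94 bases) and Mccc1os (198 bases), at means of 0.625 and 0.345 RPKM. They also share 321 bases with the pseudogene B230207O21Rik on the opposite strand, for which no level is given here.

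Mccc2, the partner subunit, was at 17.9 ± 1.9 RPKM in KO-labelled libraries and 20.7 ± 2.8 RPKM in WT (log2 change -0.20, limma adjusted p = 0.249). Ivd, which dehydrogenates isovaleryl-CoA, was at 21.2 ± 2.8 against 25.8 ± 4.0 RPKM (log2 change -0.27, limma adjusted p = 0.202). Auh, which hydrates methylglutaconyl-CoA, was at 6.81 ± 0.29 against 7.07 ± 0.68 RPKM.

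The valine branch held 2 of the 5 falls. Hibch removes CoA from hydroxyisobutyryl-CoA. It was at 6.11, 6.26, 5.99, 5.85 and 6.61 RPKM in KO-labelled libraries 1, 4, 7, 8 and 17, and at 8.11, 11.4, 7.70, 10.2 and 8.90 RPKM in WT 2, 9, 19, 86 and 89. All KO-labelled libraries lay below all WT libraries, and the log2 value fell by 0.54 (SE 0.10, limma adjusted p = 0.0148). Its coding transcript ENSMUST00000044478 fell from 25.1 ± 4.3 to 14.2 ± 2.0 RPKM (log2 change -0.80, limma adjusted p = 0.0376). The noncoding transcript ENSMUST00000159431 was at 20.9 ± 5.8 RPKM in WT and 18.5 ± 5.6 RPKM in the KO-labelled libraries.

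Aldh6a1 encodes methylmalonate semialdehyde dehydrogenase, which makes propionyl-CoA. It was at 53.7, 46.3, 48.8, 48.2 and 54.8 RPKM in KO-labelled libraries 1, 4, 7, 8 and 17, and at 61.7, 85.5, 59.4, 72.5 and 73.8 RPKM in WT 2, 9, 19, 86 and 89. The groups did not overlap, and the log2 value fell by 0.47 (SE 0.10, limma adjusted p = 0.0266). The adjusted p rose above 0.05, to at most 0.0641, when KO 1, KO 7, KO 8, WT 86 or WT 89 was left out. Its transcript ENSMUST00000085192 fell from 67.2 ± 8.3 to 44.9 ± 3.3 RPKM (log2 change -0.57, limma adjusted p = 0.0359). Strand use in the counting is not stated, and exons of Aldh6a1 share 1078 bases with Bbof1 on the opposite strand, which was at a mean of 1.04 RPKM.

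These were the 2 transcripts called among the 94 tested of the members, against 0.452% of 44475 transcripts called lower and 0.0922% called higher. Without 1 library the number called was 0 without KO 1, KO 7, KO 8, KO 17, WT 9, WT 19 or WT 89, and 1 without WT 86. The other valine genes were not called. Acad8, which dehydrogenates isobutyryl-CoA, was at 8.54 ± 1.45 against 7.76 ± 1.36 RPKM (log2 change 0.13). Hibadh, which oxidises the hydroxyisobutyrate that Hibch releases, was at 36.5 ± 1.8 against 41.7 ± 4.9 RPKM (log2 change -0.18, limma adjusted p = 0.198).

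The isoleucine branch held a called rise at its first enzyme. Acadsb, the dehydrogenase of short branched-chain acyl-CoA, was at 41.4, 43.2, 44.3, 43.5 and 49.6 RPKM in KO-labelled libraries 1, 4, 7, 8 and 17. It was at 24.8, 32.8, 24.3, 34.5 and 31.1 RPKM in WT 2, 9, 19, 86 and 89. The groups did not overlap, and the log2 value rose by 0.59 (SE 0.11, limma adjusted p = 0.0127), a fold change of 1.51 with a 95% interval of 1.28 to 1.77. The values rest on 2818 to 3907 reads per KO-labelled library and 1764 to 2232 per WT library. Its main coding transcript ENSMUST00000015829 was at 46.3 ± 2.5 against 31.7 ± 5.2 RPKM (limma adjusted p = 0.0747).

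Acat1, the mitochondrial thiolase that also acts on acetoacetyl-CoA, was at 40.3 to 46.5 RPKM in KO-labelled libraries and 27.1 to 37.6 RPKM in WT. These ranges did not overlap, but the test was not passed (log2 change 0.34, limma adjusted p = 0.0524). The adjusted p was 0.0466 with a filter at 1 RPKM and 0.0496 with array weights, and 0.225 with median-ratio scaling. Hsd17b10, the dehydrogenase between Acadsb and Acat1, was at 32.5 ± 2.1 against 37.7 ± 5.6 RPKM (log2 change -0.20, limma adjusted p = 0.213).

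None of the 6 genes from propionyl-CoA to succinyl-CoA was called. Propionyl-CoA carboxylase has a biotin-carrying alpha subunit, Pcca, at 12.2 ± 0.6 RPKM in KO-labelled libraries and 10.7 ± 1.3 RPKM in WT (log2 change 0.18, limma adjusted p = 0.200). Its beta subunit Pccb was at 35.5 ± 1.9 against 37.3 ± 3.2 RPKM (log2 change -0.07). Exons of Pcca share 241 bases with Ggact on the opposite strand, which was at a mean of 5.09 RPKM. The epimerase Mcee was at 14.99 ± 0.89 against 15.9 ± 2.0 RPKM, and the methylmalonyl-CoA mutase Mut at 17.8 ± 1.7 against 15.9 ± 2.0 RPKM (log2 change 0.16, limma adjusted p = 0.307). Mmaa and Mmab, which deliver the cobalamin cofactor to the mutase, had log2 changes of -0.04 (interval -0.25 to 0.17) and -0.13 (interval -0.32 to 0.06).

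Abat and Oxct1 connect to the pathway from outside it. Abat, the aminotransferase of GABA that also acts on aminoisobutyrate, was at 10.5, 10.04, 8.97, 10.1 and 8.42 RPKM in KO-labelled libraries 1, 4, 7, 8 and 17. It was at 6.05, 6.19, 5.68, 6.94 and 6.46 RPKM in WT 2, 9, 19, 86 and 89. The groups did not overlap, and the log2 value rose by 0.58 (SE 0.08, limma adjusted p = 0.00202), the smallest adjusted p among the members. Its main coding transcript ENSMUST00000065987 was at 9.21 ± 1.02 against 6.35 ± 0.69 RPKM (limma adjusted p = 0.0929). Oxct1, which activates acetoacetate in ketone body use, was at 45.9 ± 1.6 against 43.8 ± 4.6 RPKM (log2 change 0.07, and -0.02 with median-ratio scaling).

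Ratios of paired members within a library were compared for 9 pairs, by two-sided exact permutation tests with Benjamini-Hochberg adjustment over the 9. They are pairs of subunits, of opposing, parallel or successive enzymes, and of the mutase with its cofactor protein Mmaa. The pairs were listed with earlier results of some members known. The smallest p the design allows is 0.00794, which 5 ratios reached (adjusted p = 0.0143). Each of these 5 ratios contains a called member, so they are not separate from the calls above. The share of other gene pairs that would reach it was not computed. Bcat2 to Bcat1 had a geometric mean of 46.2 in the KO-labelled libraries and 96.5 in WT, a log2 difference of -1.06. Acadsb to Ivd was at 2.11 against 1.146 (log2 difference 0.88), so the isoleucine dehydrogenase stood higher relative to the leucine one in 5 of 5 KO-labelled libraries.

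Ratios of subunits of one enzyme differed too. Mccc1 to Mccc2 was at 0.481 to 0.698 in the KO-labelled libraries and 0.353 to 0.373 in WT (log2 difference 0.64). Bckdha to Bckdhb was at 3.92 to 5.40 against 2.75 to 3.91 (log2 difference 0.45). Among the other pairs, Hibch to Hibadh, successive enzymes of the valine branch, was at 0.160 to 0.184 against 0.209 to 0.236 (log2 difference -0.39). Pcca to Pccb was at 0.307 to 0.363 against 0.269 to 0.311, ranges that overlap (log2 difference 0.26, exact permutation p = 0.0159, adjusted p = 0.0238).

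Acadsb to Acad8 had a log2 difference of 0.46 (exact permutation p = 0.0238, adjusted p = 0.0306), and 7 of 10 runs that left out 1 library did not pass. Their log2 differences were 0.34 to 0.47, and the library left out was KO 1, KO 7, KO 8, KO 17, WT 9, WT 19 or WT 89. Bckdk to Ppm1k (0.22) and Mmaa to Mut (-0.21) did not pass with all 10 libraries (exact permutation adjusted p = 0.0635 each). The first passed without WT 19 (0.28) and the second without WT 2 (-0.26).

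**Figure D3:**
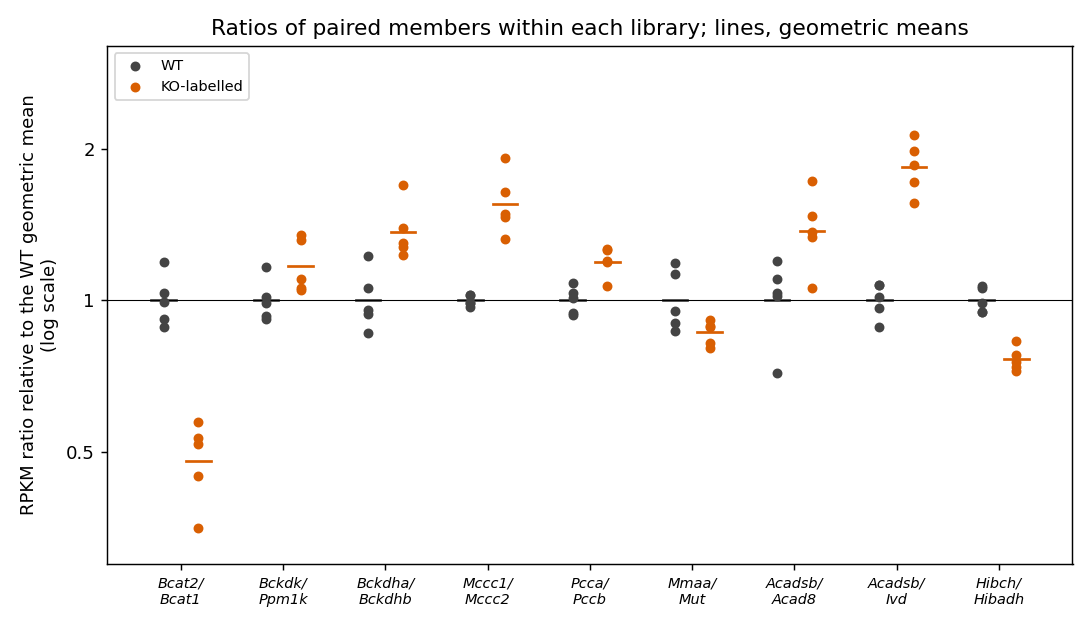
Ratio of RPKM values of 2 members within each library, divided by the WT geometric mean of that ratio, on a log scale; points are libraries (n = 5 in each group) and lines are geometric means. The KO-labelled points of Bcat2 to Bcat1 lie below all WT points, and those of Acadsb to Ivd and Mccc1 to Mccc2 lie above all WT points.

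WT 9 was the highest WT library for 15 of the 29 members and WT 86 for 11, while WT 2 was the lowest for 14 and WT 19 for 12. Of all genes tested, 24.2% were highest in WT 9 and 20.5% in WT 86 among the WT libraries, and 20.2% were lowest in WT 2 and 16.5% in WT 19. Of the 28 tested members, 25 had a smaller SD of the log2 values in the KO-labelled group than in WT, against 48.3% of all genes tested. Without WT 2 the number was 20, without WT 9 it was 21, and without any other library 23 to 26. This count was chosen after the values were seen and has no test. Adipocyte markers summed to 26320 RPKM in WT 9 and 23400 RPKM in WT 86, the highest WT libraries, and to 19260 RPKM in WT 19 and 18220 RPKM in WT 2, the lowest. Mitochondrial content genes summed to 1638 RPKM in WT 9 and 1416 RPKM in WT 2, and shared degradation enzymes to 783.5 and 624.6 RPKM, again the highest and lowest WT libraries. WT 9 also had the highest WT sums of endothelial (337.2 RPKM) and smooth muscle and pericyte markers (333.9 RPKM). In the KO-labelled group KO 7 had the highest adipocyte sum, 8304 RPKM. It was the highest library for 0 of the 29 members and the lowest for 12. KO 17, at 7669 RPKM, was highest for 11 and lowest for 1. Among KO-labelled libraries, 16.6% of all genes tested were highest and 29.9% lowest in KO 7, against 19.8% and 11.3% in KO 17. The part of these sums in the order of the libraries was not tested.

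Other genes of the pathway came from lists of shared enzymes, cofactors, transporters, leucine sensing and regulators. The counts of these lists stand beside 1.95% of all genes tested called lower and 4.0% called higher. Of 28 tested shared and accessory degradation enzymes, 2 were called lower and 1 higher, with a median log2 change of -0.02. Aacs, which activates acetoacetate in the cytosol for lipid synthesis, fell from 50.2 ± 15.9 to 23.0 ± 5.2 RPKM (log2 change -1.08, limma adjusted p = 0.0213), a call kept in 7 of 10 runs that left out 1 library. Hacl1, a peroxisomal lyase, fell by 0.41, and Hadha, the alpha subunit of the mitochondrial trifunctional protein, rose by 0.30 on the log2 scale. Hacl1 and Hadha were each called in 2 of those 10 runs, and Hadha was not called with median-ratio scaling (limma adjusted p = 0.134).

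Of 20 tested cofactor genes, 1 was called lower and 1 higher, with a median log2 change of 0.08. Slc5a6, the transporter of biotin and pantothenate, fell from 8.95 ± 1.06 to 3.11 ± 0.27 RPKM (log2 change -1.38, SE 0.09, limma adjusted p = 1.89e-05). Biotin is the prosthetic group of the carboxylases that Mccc1 and Pcca belong to. Lmbrd1, a lysosomal cobalamin exporter, rose by 0.18 on the log2 scale (limma adjusted p = 0.0452), a call made in none of the runs that left out 1 library and not with median-ratio scaling (limma adjusted p = 0.376).

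Large neutral amino acid transporters had 2 called lower of 9 and none higher. Their median log2 change was 0.15, and only the 2 called had a negative log2 change. Slc43a1, a uniporter of branched-chain amino acids and phenylalanine, fell from 10.6 ± 1.7 to 4.76 ± 0.73 RPKM (log2 change -1.08, limma adjusted p = 7.66e-04). Slc1a5, a glutamine and neutral amino acid exchanger, fell from 200.1 ± 31.6 to 102.6 ± 17.8 RPKM (log2 change -0.96, limma adjusted p = 0.00414). Of 19 leucine sensing and mTORC1 genes, Eif4ebp1, which encodes a translation repressor that mTORC1 phosphorylates, fell by 0.81 and Castor2, which encodes a paralogue of the arginine sensor of mTORC1, rose by 0.35 on the log2 scale. Castor2 was called in 1 of the 10 runs that left out 1 library, and not with median-ratio scaling (limma adjusted p = 0.135).

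Of 8 tested regulators linked to the pathway, 4 were called lower and none higher, with a median log2 change of -0.71. Pparg, the nuclear receptor of adipocyte differentiation, fell by 1.11, Ppara by 0.91, Mlxipl (the carbohydrate response factor ChREBP) by 0.86 and Cebpa by 0.77 on the log2 scale. Their limma adjusted p ran from 2.60e-04 for Pparg to 0.0300 for Cebpa, which was called in 4 of 10 runs that left out 1 library. The adipocyte markers that fell most were Adrb3 (-2.92), Retn (-2.37), Cfd (-2.15) and Cidec (-2.08), each further than any member of the pathway.

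Of the 8 calls among the members, 5 were kept in each of the 10 runs that left out 1 library, those of Slc25a44, Bcat2, Hibch, Acadsb and Abat. The calls of Slc25a44, Bcat2, Acadsb and Abat were also kept in each of 10 other settings of pseudocount, filter, scaling, weighting and choice of libraries. That of Hibch was kept in 9 of these, and its log2 change was -0.50 among libraries numbered under 20 (limma adjusted p = 0.104).

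**Figure D4:**
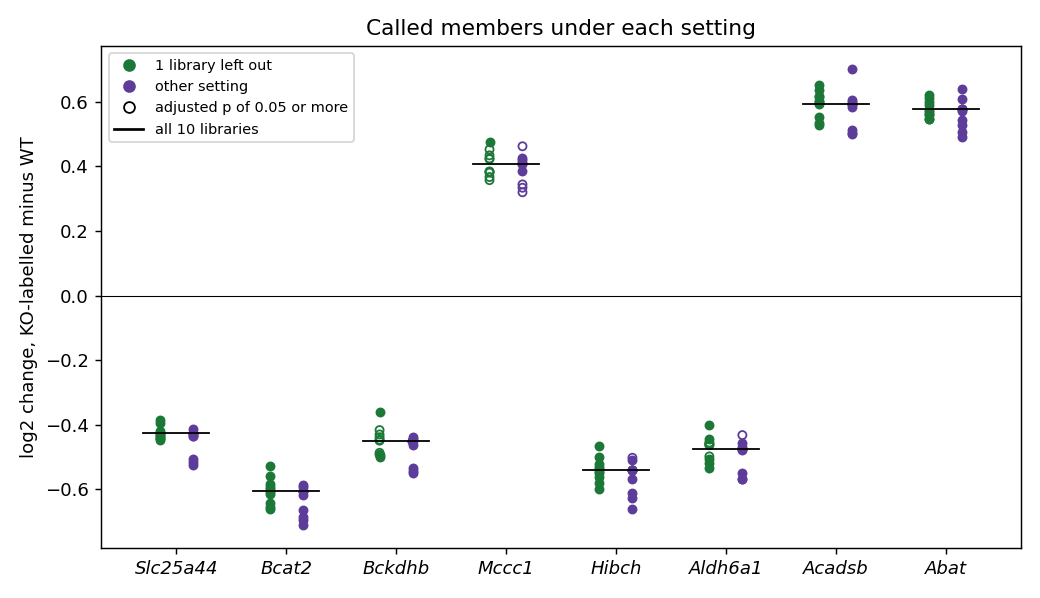
Log2 change, KO-labelled minus WT, of the 8 called members in runs that left out 1 library (green) and in the other settings (purple); the black line is the value from all 10 libraries and open points had an adjusted p of 0.05 or more. Signs stayed the same in all runs shown, while Mccc1, Bckdhb and Aldh6a1 have open points among the runs that left out 1 library.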

How the data were processed

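RNA-seq of gonadal white adipose tissue was compared between 5 KO and 5 WT libraries. Per the file names, the values are RPKM, which the authors deposited for genes and for transcripts; the submitters' processing notes name bcl2fastq, STAR 2.0.4b1, Subread and featureCounts 1.4.52. The labels name polyA RNA. No source used here gives the genome build or annotation.

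Repeated rows of one identifier held equal values and were used once. Whole reads were recovered for 25121 of 25122 genes above 0 in at least 3 libraries (tolerance 0.001 reads), with GENCODE M21 exon lengths or a length search. They gave depth and a voom fit.

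For 17038 genes the fitted value was log2 of RPKM with 0.5 added (filter: at least 0.5 RPKM in at least 5 libraries), with limma 3.58.1 (eBayes with trend and robust, statmod 1.5.0, R 4.3.3), two-sided, with Benjamini-Hochberg adjustment over all genes; transcripts likewise. A fold change on this scale understates low genes. The members, lists and ratios were chosen with earlier results of these data known. Named genes are all members, up to 4 called genes per list with the largest change, up to 2 of the most abundant where fewer than 2 were called, and Med19; the most abundant genes of lists without calls are mostly left as summed levels. Alternatives were median-ratio and quantile scaling, voom, array weights, eBayes without trend or robust, a pseudocount of 0.1 or 1, a filter at 1 RPKM or none, libraries numbered under 20, and each library left out. Protein sequences were not used here.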

Additional observations from a re-analysis of the deposited data

Results flagged for a closer look

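Among 78 groups of 5 libraries checked for a library far from the rest, over the 29 members, 9 ratios and Med19, 3 were singled out, and chance gives about 1 in 20. KO 17 stood high at 16.4 RPKM for Bckdhb and at 16.6 RPKM for Mcee within the KO-labelled group, where its gap to the next library was 0.7104 and 0.774 of the group's range. WT 2 stood low at 5.41 RPKM for Acad8, with a gap of 0.711 of the WT range. The limit for 5 libraries is 0.71.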

How the results depend on the processing

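Leaving out 1 library gave 3 to 5 members called lower; it was 3 without KO 1, KO 7, KO 8, WT 86 or WT 89. The number of all genes called lower ranged from 205 (without KO 1) to 313, and called higher from 192 (without KO 1) to 693. With libraries numbered under 20 (5 KO-labelled, 3 WT), 2 members were called lower, with 137 genes lower and 71 higher in all; fewer libraries entered. All genes called higher numbered 102 with median-ratio scaling, 149 with quantile normalization, 145 with voom and 292 with no filter; the cause was not tested.

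Transcripts of members called ranged from 0 to 2 without 1 library. Ratios without 1 library ranged from 0.34 to 0.55 for Acadsb to Acad8 (0.52 and exact permutation adjusted p = 0.0689 with libraries numbered under 20), 0.17 to 0.28 for Bckdk to Ppm1k and -0.26 to -0.15 for Mmaa to Mut. The Med19 difference ranged from -0.205 to 0.398 RPKM.

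Signs turned only for members not called. With median-ratio scaling, quantile normalization and voom in that order, Slc3a2 was at -0.0433, -0.0364 and -0.0396, Dld at -0.0649, -0.0596 and -0.0621, and Oxct1 at -0.0196, -0.0091 and -0.0148. Without 1 library Bckdha ranged from -0.0844 to 0.05002, Dld from -0.0330 to 0.109 and Mmaa from -0.115 to 0.000816, and Mmaa was at 0.0079 with libraries numbered under 20.

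Of 560 alternative values of the 28 members, 506 kept sign and side of the threshold, 32 lost a call, 20 turned sign and 2 gained a call, both of Acat1. No paired analysis was possible because the title numbers are not shared between the groups. Bcat1, at 28 to 62 reads per library, is limited by depth.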
